A study of Homo sapiens with 6 samples.

Results

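DYNLRB1, MED19, FURIN, SNX15, HIP1R, GRAMD1B, TMED4, GPR157, CPOX and CLU are 10 of the 17468 genes in the deposited FPKM table, and all 10 were found in it by symbol. They were chosen by their values: each was higher with both ETV1 hairpins than with the scrambled hairpin in both cell lines, on the scale log2(FPKM + 1) (FPKM counts sequenced fragments per length of transcript and per size of library). The difference from scrambled is therefore described below with no test. The choice did not set one ETV1 hairpin against the other, nor one line against the other, and those comparisons were tested, on the same libraries that the choice used.

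The libraries came from 2 human melanoma cell lines, Colo800 and A375, grown in 10% FBS and infected with viruses carrying a short hairpin RNA: ETV1-sh2 or ETV1-sh1, both against the ETS transcription factor ETV1, or a scrambled sequence. The cells were collected 4 days after infection. The table has 1 column for each line and hairpin, 6 in all, with no replicate within a line and hairpin. Infection was in duplicate, and the sources used here do not say whether a column joins both. The treatment label of the samples names a drug as well: 5 nM trametinib (a MEK inhibitor) for ETV1-sh2, DMSO for ETV1-sh1 and 1 uM vemurafenib (a BRAF inhibitor) for scrambled, with a protocol of 48 hours of siRNA and 8 hours of drug. The series' design names no drug. Each drug label goes with 1 hairpin in both lines, so an effect of hairpin and an effect of drug cannot be told apart.

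ETV1, the hairpins' target, was at 9.80 FPKM with ETV1-sh2 and 54.6 with ETV1-sh1 in Colo800, against 180.3 with scrambled. In A375 it was at 3.46 FPKM with ETV1-sh2 and 34.6 with ETV1-sh1, against 82.8 with scrambled. ETV1-sh2 thus left 5.43% and 4.18% of the scrambled level in Colo800 and A375, and ETV1-sh1 left 30.3% and 41.8%. Between 10418 and 11013 genes per library were at 1 FPKM or more, and the depth behind the values is unknown. Of 8 melanocyte markers 7 were in the table. SOX10 (353 to 712 FPKM), S100B (39.4 to 305) and MITF (8.61 to 116) were present in all 6 libraries. TYR and DCT were at 14.8 FPKM or more in every Colo800 library and at no more than 0.0758 in every A375 library. MLANA (0.510 to 1.85 FPKM in Colo800, 0.301 to 0.481 in A375) and TYRP1 (1.44 to 1.70 in Colo800, 0.286 to 0.604 in A375) were low in both lines. Leukocyte markers summed to at most 0.294 FPKM and endothelial markers to at most 4.79. Fibroblast markers summed to 28.4, 10.5 and 7.96 FPKM in Colo800 with ETV1-sh2, ETV1-sh1 and scrambled, and to 34.6, 15.5 and 13.1 in A375, and keratinocyte markers to between 5.40 and 21.5; their part in the results was not tested. Among 12 genes that follow ERK signalling, the phosphatase DUSP6 was at 138, 95.9 and 156 FPKM in Colo800 with ETV1-sh2, ETV1-sh1 and scrambled, and at 118, 166 and 201 in A375. CCND1 was at 139, 167 and 346 in Colo800 and at 76.8, 207 and 411 in A375, in the same order, and the part of these genes was not tested either. With ETV1-sh2 CCND1 (log2 change -1.86), SPRY4 (-1.48) and DUSP4 (-1.43) fell and EGR1 (1.69) rose, and with ETV1-sh1 ETV5 (-1.54) fell, at limma adjusted p of 0.0339 or less.

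ETV1 is a DNA-binding factor of the PEA3 branch of the ETS family, which acts downstream of ERK signalling and is known in melanoma as an oncogene. Several of the 10 genes serve membrane traffic, in which cargo leaves one compartment in coated vesicles, is carried along microtubules or actin and is sorted or cut on arrival. DYNLRB1, HIP1R, SNX15 and TMED4 act in motors, coats, endosomal sorting and transport between the endoplasmic reticulum and the Golgi. GRAMD1B moves sterol between membranes, FURIN is a protease of the late Golgi, CLU is a secreted chaperone, GPR157 is a receptor, CPOX is a mitochondrial enzyme and MED19 is a nuclear protein.

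RefSeq promoter windows (build GRCh38.p14, 250 bases before to 50 bases after an annotated start) were on hand for 7 of the 10 genes, 12 windows in all; GRAMD1B, TMED4 and CLU had none. ETS factors bind around the letters GGAA, so that motif was searched on both strands, together with the longer CCGGAAGT, which contains it. GGAA was found in 10 of the 12 windows and in 95.5% of all 35116 windows of the table. CCGGAAGT was in 0 of the 12 and in 4.14% of all windows. The number of GGAA matches per window ran from 0 to 7 in these genes, with a median of 3 over all windows. A match is a run of letters, not a measured binding site. The 5 windows below show that range, from 7 matches in SNX15 to 0 in GPR157, and both starts of DYNLRB1, the gene with the largest smallest difference. Capitals mark GGAA on the printed strand or TTCC, its complement; each is printed 5′ to 3′ along the gene.
DYNLRB1 at chr20:34515352-34515651, plus strand: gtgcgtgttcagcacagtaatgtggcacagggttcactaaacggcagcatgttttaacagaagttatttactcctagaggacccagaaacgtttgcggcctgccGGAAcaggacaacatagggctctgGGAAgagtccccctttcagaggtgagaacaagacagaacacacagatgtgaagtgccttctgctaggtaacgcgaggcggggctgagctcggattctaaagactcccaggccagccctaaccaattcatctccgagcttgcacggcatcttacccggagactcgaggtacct
DYNLRB1 at chr20:34516172-34516471, plus strand: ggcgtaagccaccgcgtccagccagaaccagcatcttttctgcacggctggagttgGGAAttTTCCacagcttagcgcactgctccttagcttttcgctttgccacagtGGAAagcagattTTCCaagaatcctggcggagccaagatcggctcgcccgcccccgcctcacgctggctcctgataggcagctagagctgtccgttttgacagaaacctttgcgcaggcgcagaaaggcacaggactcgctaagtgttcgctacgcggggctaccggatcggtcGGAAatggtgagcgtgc
MED19 at chr11:57712166-57712465, minus strand: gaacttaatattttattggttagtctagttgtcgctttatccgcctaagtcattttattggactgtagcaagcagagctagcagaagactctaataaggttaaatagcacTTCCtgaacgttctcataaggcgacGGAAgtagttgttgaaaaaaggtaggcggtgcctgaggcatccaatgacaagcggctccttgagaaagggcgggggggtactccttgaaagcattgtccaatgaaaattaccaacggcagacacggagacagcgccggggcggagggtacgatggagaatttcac
SNX15 at chr11:65027189-65027488, plus strand: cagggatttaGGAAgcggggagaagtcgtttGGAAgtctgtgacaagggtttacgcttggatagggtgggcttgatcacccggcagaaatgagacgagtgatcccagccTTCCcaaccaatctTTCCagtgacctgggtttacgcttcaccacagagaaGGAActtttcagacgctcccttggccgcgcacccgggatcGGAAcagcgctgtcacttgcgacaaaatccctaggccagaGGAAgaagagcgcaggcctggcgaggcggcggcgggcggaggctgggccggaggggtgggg
GPR157 at chr1:9129053-9129352, minus strand: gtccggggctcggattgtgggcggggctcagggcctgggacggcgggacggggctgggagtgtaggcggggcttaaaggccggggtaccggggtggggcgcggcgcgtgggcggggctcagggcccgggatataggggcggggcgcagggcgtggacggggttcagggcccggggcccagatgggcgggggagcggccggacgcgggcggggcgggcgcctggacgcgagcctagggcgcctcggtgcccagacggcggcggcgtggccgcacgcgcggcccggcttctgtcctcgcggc

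Across the table the 10 genes stood at the upper end of the differences from scrambled, as their choice required. All 10 had a mean of at least 1 FPKM and entered the fits, which covered 11129 genes. All 4 differences were above 0 in all 10 genes, and in 19.7% of all genes tested. All 4 were at least 1 on the log2 scale, roughly a doubling, in 8 of the 10 and in 0.243% of all genes tested; TMED4 and CLU fell short in A375 with ETV1-sh1. In 8 of the 10 the lowest of the 4 ETV1 hairpin values was above both scrambled values, as in 6.45% of all genes tested, and the exceptions were GRAMD1B and CLU, whose A375 scrambled level was above both Colo800 hairpin levels. The median difference of the 10 was 2.02 in Colo800 with ETV1-sh2, 1.87 in Colo800 with ETV1-sh1, 1.53 in A375 with ETV1-sh2 and 1.61 in A375 with ETV1-sh1. Over all genes tested these medians were 0.05, 0.02, 0.04 and -0.02. A change in the share of cells of a kind and a change in RNA per cell cannot be told apart in such bulk libraries.

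**Figure D1:**
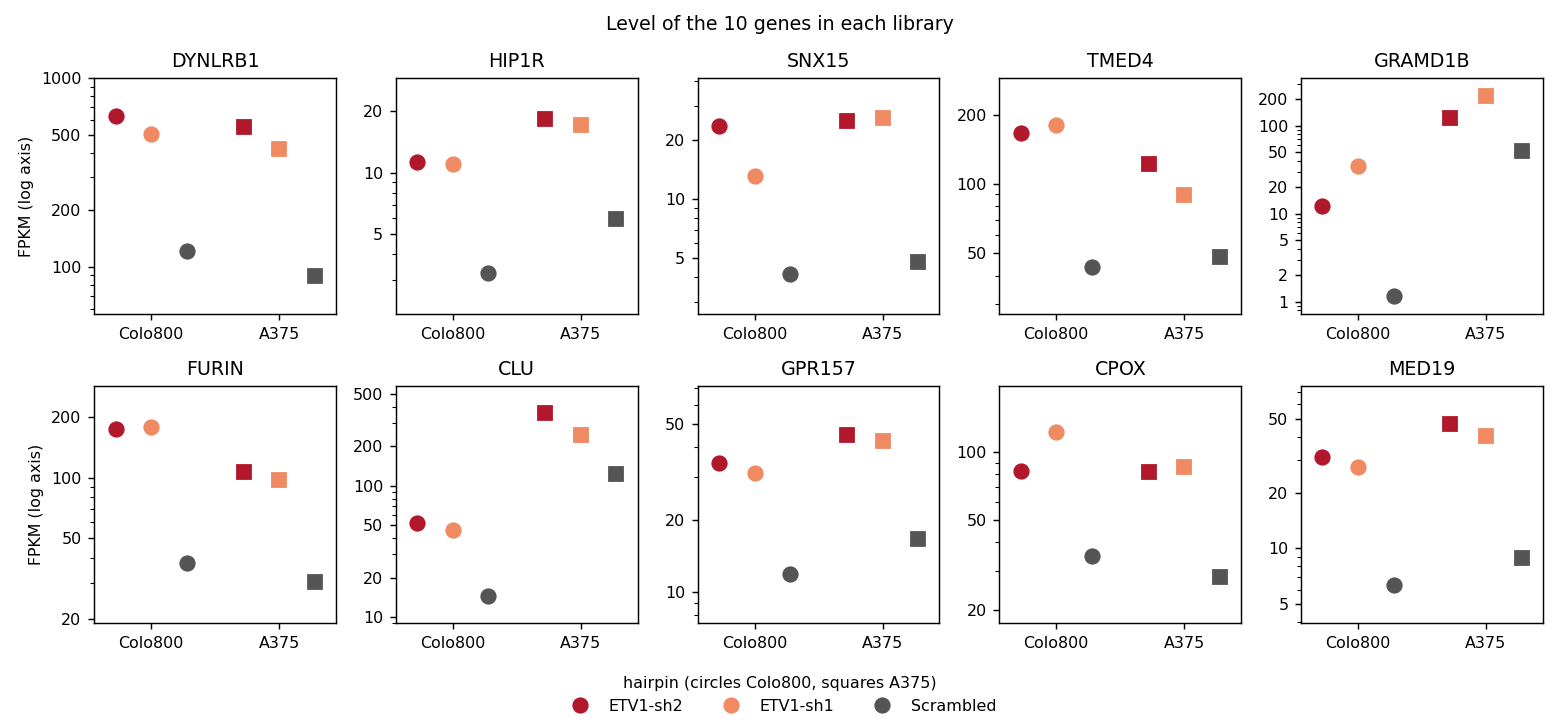
Level in FPKM (log axis) of each of the 10 genes in the 6 libraries, with circles for Colo800 on the left and squares for A375 on the right of each panel, in the order ETV1-sh2, ETV1-sh1, scrambled. In every panel the scrambled library is the lowest of its line, and GRAMD1B and CLU show the widest gap between the lines.

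DYNLRB1 (ENSG00000125971) is a light chain of cytoplasmic dynein, the motor that carries cargo toward the minus ends of microtubules. It was at 627 FPKM with ETV1-sh2 and 504 with ETV1-sh1 in Colo800, against 121 with scrambled. In A375 it was at 549 FPKM with ETV1-sh2 and 422 with ETV1-sh1, against 89.5 with scrambled. Its 2 scrambled libraries lay far below the 4 others, which did not overlap with them. The fold over scrambled was 5.20 and 4.17 in Colo800 and 6.13 and 4.72 in A375 with ETV1-sh2 and ETV1-sh1. DYNLRB1 had the highest FPKM of the 10 in every library but A375 scrambled, where CLU was higher. Its smallest difference on the log2(FPKM + 1) scale, 2.05 in Colo800 with ETV1-sh1, ranked 1 of the 11129 genes. Its paralog DYNLRB2 was listed at 0 in all 3 Colo800 libraries and at no more than 0.350 FPKM in A375.

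HIP1R (ENSG00000130787) links clathrin coats to actin during endocytosis. In Colo800 it stood at 11.3 FPKM with ETV1-sh2 and 11.0 with ETV1-sh1, against 3.25 with scrambled, and in A375 at 18.3 and 17.1 FPKM with ETV1-sh2 and ETV1-sh1, against 5.92 with scrambled. Its 4 differences were among the most even of the 10 genes, with a mean of 1.48 and an SD of 0.0619 (1.54, 1.50, 1.48 and 1.39 in Colo800 ETV1-sh2, Colo800 ETV1-sh1, A375 ETV1-sh2 and A375 ETV1-sh1). HIP1, its closest relative, named after its values were seen, had values of 26.2, 44.7 and 34.8 FPKM in Colo800 with ETV1-sh2, ETV1-sh1 and scrambled and of 22.8, 26.0 and 20.1 in A375, and its mean difference was 0.12.

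SNX15 (ENSG00000110025) is a sorting nexin, a lipid-binding protein of endosomes. Its level in Colo800 was 23.6 FPKM with ETV1-sh2 and 13.1 with ETV1-sh1, against 4.13 with scrambled. A375 gave 25.1 FPKM with ETV1-sh2 and 26.0 with ETV1-sh1, against 4.80 with scrambled. The Colo800 ETV1-sh1 library was the odd one, with a difference of 1.46, while the other 3 lay between 2.17 and 2.26. The GENCODE 29 annotation has the read-through gene ARL2-SNX15 on the same strand, and reads shared by both cannot be told apart from the table.

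TMED4 (ENSG00000158604) belongs to the p24 family, which selects cargo for vesicles between the endoplasmic reticulum and the Golgi. It had 166 FPKM with ETV1-sh2 and 181 with ETV1-sh1 in Colo800, against 43.4 with scrambled, and 122 and 89.8 FPKM with ETV1-sh2 and ETV1-sh1 in A375, against 48.2 with scrambled. Scrambled was the lowest library in both lines, but the A375 ETV1-sh1 library was only 1.86-fold above it, the smallest fold seen in any of the 10 genes. TMED9, another p24 protein, named after its values were seen, was at 136, 189 and 126 FPKM in Colo800 with ETV1-sh2, ETV1-sh1 and scrambled and at 135, 91.5 and 81.0 in A375.

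GRAMD1B (ENSG00000023171), also called Aster-B, carries cholesterol from the plasma membrane to the endoplasmic reticulum. In Colo800 it was at 12.2 FPKM with ETV1-sh2 and 34.5 with ETV1-sh1, against 1.15 with scrambled. In A375 its values were 122 FPKM with ETV1-sh2 and 221 with ETV1-sh1, against 52.2 with scrambled. This was the most uneven of the 10 genes: the fold over scrambled was 10.6 and 30.1 in Colo800 and 2.33 and 4.23 in A375 with ETV1-sh2 and ETV1-sh1, and the SD of the 4 differences was 1.19 around a mean of 2.48. The Colo800 scrambled level stood at percentile 8.42 of the genes tested in that library, so the fold there rests on a low denominator. Both lines had more GRAMD1B with ETV1-sh1 than with ETV1-sh2, the reverse of the order for DYNLRB1.

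FURIN (ENSG00000140564) is a proprotein convertase that cuts growth factors, receptors and proteases to their active form on the way to the cell surface. It was at 173 FPKM with ETV1-sh2 and 177 with ETV1-sh1 in Colo800, against 37.6 with scrambled, and in A375 at 106.5 FPKM with ETV1-sh2 and 97.4 with ETV1-sh1, against 30.4 with scrambled. The hairpin libraries of each line were close to each other, and those of Colo800 were above those of A375. Mean differences were 2.19 in Colo800 and 1.71 in A375.

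CLU (ENSG00000120885), clusterin, is a secreted chaperone that also restrains the terminal complement pathway. Colo800 had 52.5 FPKM with ETV1-sh2 and 45.7 with ETV1-sh1, against 14.4 with scrambled. A375 had 359 FPKM with ETV1-sh2 and 243 with ETV1-sh1, against 122 with scrambled. Scrambled was lowest within each line, but every A375 library was above every Colo800 library. The A375 ETV1-sh1 library was 1.99-fold over scrambled, the other 3 between 2.94-fold and 3.65-fold.

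GPR157 (ENSG00000180758) is an orphan G protein-coupled receptor. It stood at 34.3 FPKM with ETV1-sh2 and 31.2 with ETV1-sh1 in Colo800, against 11.9 with scrambled, and at 44.7 and 42.4 FPKM with ETV1-sh2 and ETV1-sh1 in A375, against 16.6 with scrambled. Its 4 differences lay between 1.30 and 1.45 (mean 1.36, SD 0.067). With HIP1R it had the lowest SDs of the 10, and their order depended on the pseudocount: at 0.1 in place of 1 the SD was 0.0736 for GPR157 and 0.115 for HIP1R.

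CPOX (ENSG00000080819), coproporphyrinogen oxidase, is a mitochondrial enzyme of heme synthesis. Its values were 82.2 FPKM with ETV1-sh2 and 122 with ETV1-sh1 in Colo800, against 34.7 with scrambled, and 81.7 and 86.0 FPKM with ETV1-sh2 and ETV1-sh1 in A375, against 28.1 with scrambled. The Colo800 ETV1-sh1 library was the highest, and the other 3 hairpin libraries were within 81.7 to 86.0 FPKM. GENCODE 29 has the gene AC021660.3 on the same strand over CPOX, and reads shared by both cannot be told apart.

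MED19 (ENSG00000156603) is a subunit of Mediator, the complex that passes signals from transcription factors to RNA polymerase II. It had 31.0 FPKM with ETV1-sh2 and 27.4 with ETV1-sh1 in Colo800, against 6.34 with scrambled, and 46.7 and 40.5 FPKM with ETV1-sh2 and ETV1-sh1 in A375, against 8.83 with scrambled. Its lowest ETV1 hairpin value was above both scrambled values. The 4 differences were 2.12, 1.95, 2.28 and 2.08 in Colo800 ETV1-sh2, Colo800 ETV1-sh1, A375 ETV1-sh2 and A375 ETV1-sh1. On the log2(FPKM + 1) scale they gave MED19 rank 2 by its smallest difference. By fold of FPKM the order turned, with a smallest fold of 4.32 for MED19 and 4.17 for DYNLRB1, both in Colo800 with ETV1-sh1.

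**Figure D2:**
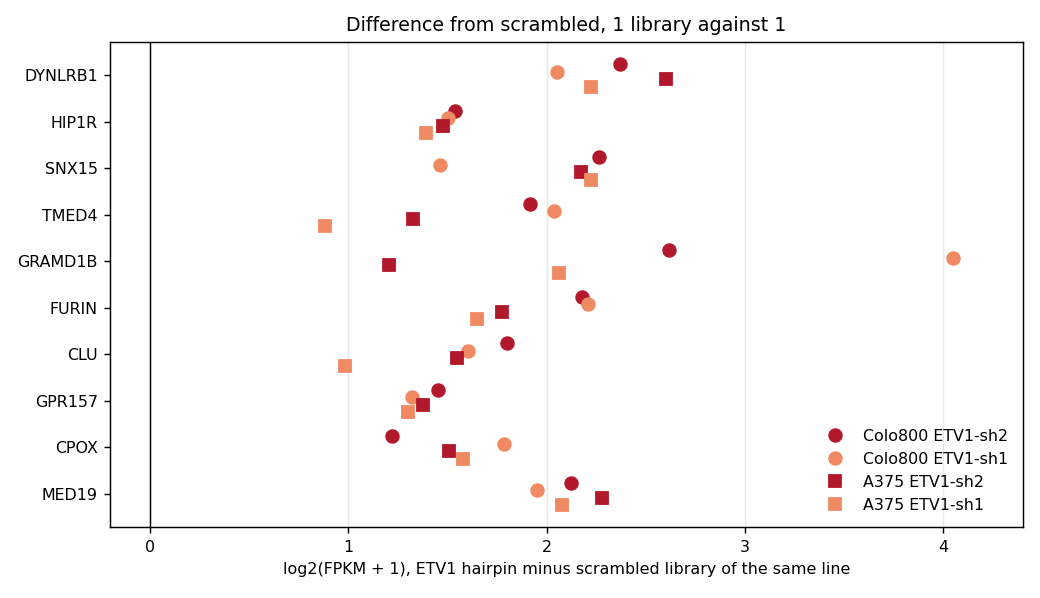
Log2(FPKM + 1) with each ETV1 hairpin minus that of the scrambled library of the same line, for the 10 genes, each point being 1 library against 1. The 4 points lie closest together for HIP1R and GPR157, and GRAMD1B spreads from 1.21 to 4.05.

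The choice of genes had no fixed threshold, so they were also placed among all genes by the smallest of their 4 differences. On the log2(FPKM + 1) scale they took ranks 1, 2, 3, 5, 6, 7, 10, 11, 30 and 47 of 11129, with CLU (0.98) and TMED4 (0.88) at ranks 30 and 47. The 5 other genes with the largest smallest difference, passing over uncharacterised and small RNA genes, were HOXC6 (rank 4, smallest difference 1.59), HSD17B10 (rank 8, 1.28), CMTM3 (rank 9, 1.25), LIPH (rank 12, 1.13) and MAPRE3 (rank 13, 1.12). HOXC6, a homeobox transcription factor, was at 22.7 and 25.4 FPKM with ETV1-sh2 and ETV1-sh1 in Colo800, against 6.87 with scrambled, and at 28.4 and 30.3 in A375, against 8.66 with scrambled. HSD17B10, a mitochondrial dehydrogenase, was at 62.5 and 64.6 FPKM with ETV1-sh2 and ETV1-sh1 in Colo800, against 25.1 with scrambled, and at 91.1 and 85.5 in A375, against 33.6 with scrambled. CMTM3, a membrane protein, was at 16.4 and 15.95 FPKM with ETV1-sh2 and ETV1-sh1 in Colo800, against 6.11 with scrambled, and at 40.3 and 28.1 in A375, against 8.10 with scrambled. LIPH, a phospholipase, was the lowest of the 5, at 5.70 and 2.69 FPKM with ETV1-sh2 and ETV1-sh1 in Colo800, against 0.682 with scrambled, and at 12.8 and 5.36 in A375, against 1.15 with scrambled. MAPRE3, a protein of growing microtubule ends, was at 36.8 and 25.5 FPKM with ETV1-sh2 and ETV1-sh1 in Colo800, against 7.47 with scrambled, and at 38.7 and 30.4 in A375, against 13.4 with scrambled. In all 5 the scrambled libraries were the lowest of the 6. These genes were named for their differences, which carry no test either.

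**Figure D3:**
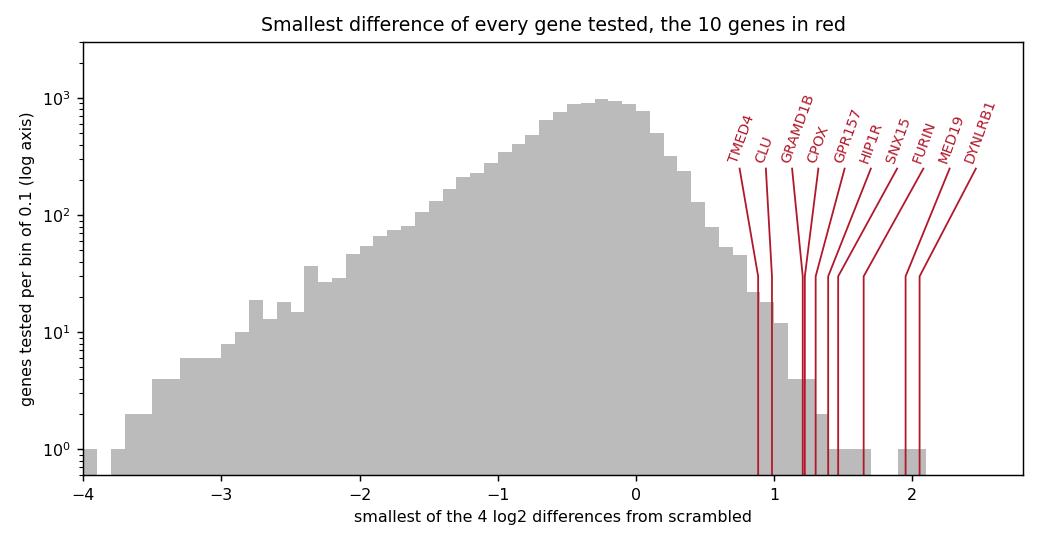
Number of genes tested (log axis) by the smallest of their 4 log2 differences from scrambled in bins of 0.1, with the 10 genes marked by red lines from TMED4 at 0.88 to DYNLRB1 at 2.05. The axis starts at -4, and 9 genes lie below it.

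The comparison of ETV1-sh2 with ETV1-sh1 asked whether the 10 genes differed between the hairpins, which left very different amounts of ETV1. ETV1 itself was lower with ETV1-sh2, with 9.80 and 54.6 FPKM for ETV1-sh2 and ETV1-sh1 in Colo800 and 3.46 and 34.6 FPKM in A375 (fitted log2 difference -2.68, SE 0.204, limma adjusted p = 0.00553). None of the 10 genes passed an adjusted p of 0.05 in limma, and 13.7% of all genes tested passed in either direction; with 10 genes, chosen for being higher with both hairpins, that count is not set against the background. Without adjustment the interval of the difference spanned 0 in 9 of the 10 and lay below it in GRAMD1B alone. Of the 11129 genes tested, 3712 had an unadjusted limma p under 0.05, and the count among the 10 is not set against them either. The ratio of ETV1-sh2 to ETV1-sh1 in FPKM ran from 0.353 (GRAMD1B) to 1.80 (SNX15) in Colo800, and from 0.552 (GRAMD1B) to 1.48 (CLU) in A375. DYNLRB1, MED19, HIP1R, GPR157 and CLU were higher with ETV1-sh2 in both lines, GRAMD1B and CPOX were lower in both, and FURIN, SNX15 and TMED4 went opposite ways in the 2 lines.

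GRAMD1B had the largest fitted difference of the 10, -1.14 on the log2 scale (95% interval -2.20 to -0.09, limma adjusted p = 0.127). With the 4 ETV1 hairpin libraries alone its limma adjusted p was 0.0273, with 1 residual degree of freedom. Leaving out either scrambled library rests this difference on the same 4 libraries, because the scrambled library that remains is fitted exactly. Those fits are therefore no separate support. With another pseudocount, no filter on low values, median centring or no variance trend GRAMD1B did not pass. For CLU the fitted difference was 0.38 (95% interval -0.09 to 0.85, limma adjusted p = 0.222). For DYNLRB1 it was 0.35 (-0.03 to 0.72, limma adjusted p = 0.172), higher with ETV1-sh2 in both lines. CPOX was at -0.32 (-0.75 to 0.12, limma adjusted p = 0.264) and SNX15 at 0.38 (-0.23 to 0.98, limma adjusted p = 0.338). The other 5 had fitted differences from 0.05 for FURIN to 0.19 for MED19, with limma adjusted p from 0.469 to 0.881. The intervals of FURIN (-0.41 to 0.50), HIP1R (-0.37 to 0.49), GPR157 (-0.29 to 0.49), MED19 (-0.22 to 0.59) and TMED4 (-0.50 to 0.82) leave room for a difference in either direction. With no replicate within a line and hairpin, the residual of the 6-library fit is how far the lines disagree on hairpin effects. Its p-values, here and between the lines, rest on that disagreement, scrambled included, after shrinkage across genes (eBayes). They do not rest on a spread between replicate libraries. The choice of genes asked for a rise over scrambled in both lines, so it used part of the same agreement. Whether the 6 libraries were separate cultures is unknown.

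**Figure D4:**
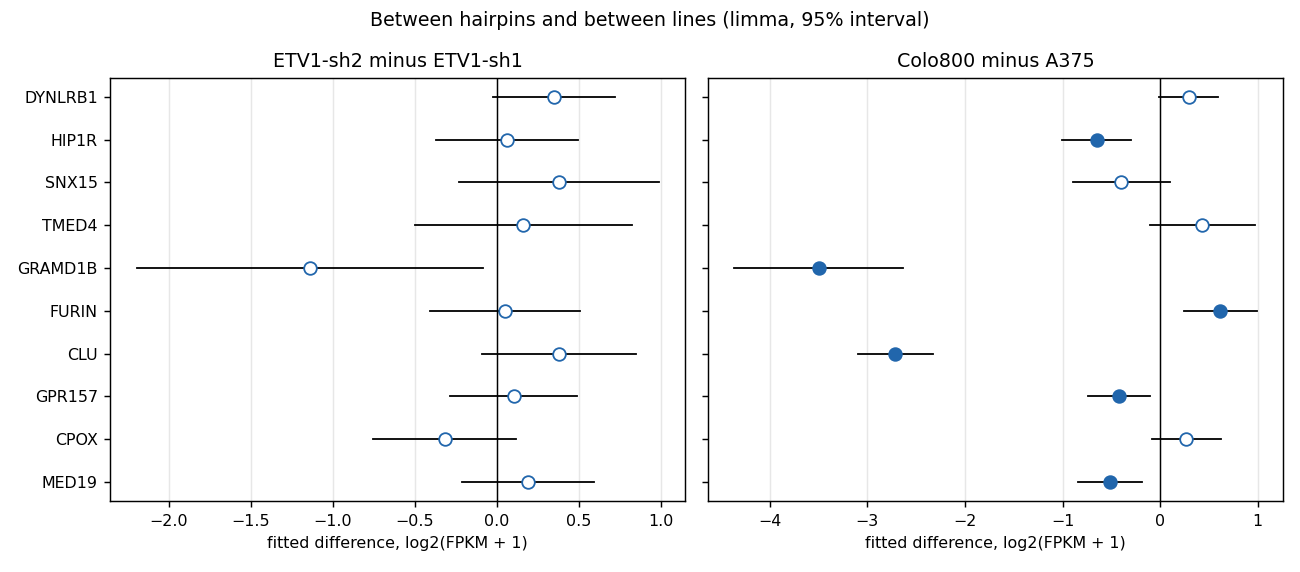
Fitted differences of log2(FPKM + 1) in limma for the 10 genes, ETV1-sh2 minus ETV1-sh1 on the left and Colo800 minus A375 on the right. Bars are 95% intervals before adjustment, and filled points have an adjusted p under 0.05: 0 of 10 between the hairpins and 6 of 10 between the lines.

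The comparison of Colo800 with A375 asked whether the lines differed in the level of the 10 genes, whichever hairpin they carried. GRAMD1B and CLU were far lower in Colo800, MED19, HIP1R and GPR157 somewhat lower, and FURIN higher. In all, 1 of the 10 was higher and 5 were lower at an adjusted p of 0.05, while 57.1% of all genes tested passed in either direction, so the share of the 10 that passed is near the background. GRAMD1B was lower in Colo800 with every hairpin, the A375 level being 10.0 times the Colo800 level with ETV1-sh2, 6.39 times with ETV1-sh1 and 45.6 times with scrambled (fitted log2 difference -3.50, SE 0.357, limma adjusted p = 0.000606). CLU was 6.84, 5.31 and 8.49 times as high in A375 with ETV1-sh2, ETV1-sh1 and scrambled (fitted log2 difference -2.71, SE 0.158, limma adjusted p = 0.000127). Both held their call under every alternative run.

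The other calls between the lines were smaller and less stable. HIP1R had a fitted difference of -0.65 (limma adjusted p = 0.0103), MED19 of -0.52 (limma adjusted p = 0.0183) and GPR157 of -0.42 (limma adjusted p = 0.0335), each lower in Colo800 with 3 of 3 hairpins. FURIN was at 0.62 (limma adjusted p = 0.0150), higher in Colo800 with 3 of 3 hairpins. MED19 and GPR157 lost their call without any 1 of the 6 libraries (limma adjusted p from 0.0586 to 0.0688 for MED19 and from 0.0734 to 0.163 for GPR157). HIP1R lost it without either scrambled library, and FURIN without either ETV1-sh1 library or with no filter on low values (limma adjusted p = 0.0686). Leaving out either library of a hairpin leaves the other fitted exactly. Both such fits thus rest the difference between the lines on the same 4 libraries. DYNLRB1 (0.29), TMED4 (0.43) and CPOX (0.27) had positive and SNX15 (-0.40) a negative fitted difference, with limma adjusted p from 0.0889 to 0.163. TMED4 passed without either scrambled library, where both fits again rest on the same libraries. Of the 4, DYNLRB1 and CPOX were higher in Colo800 in all 3 hairpins and SNX15 lower in all 3, while TMED4 was higher in Colo800 with both ETV1 hairpins and lower with scrambled.

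The size of the difference from scrambled was also set side by side for the 2 lines, as values only, because the choice of genes used it. The mean of both hairpins was 3.33 in Colo800 and 1.63 in A375 for GRAMD1B, 1.98 and 1.11 for TMED4, 2.19 and 1.71 for FURIN, and 1.70 and 1.26 for CLU. It was 1.86 in Colo800 and 2.20 in A375 for SNX15, 2.21 and 2.41 for DYNLRB1, and 2.04 and 2.18 for MED19. For HIP1R, GPR157 and CPOX the Colo800 mean minus the A375 mean was 0.08, 0.05 and -0.04. In 6 of the 10 genes the mean difference was larger in Colo800.

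For each of the 10 genes but GPR157, the other genes of its pathway, complex or family were counted in the limma fit with 3 hairpin levels. These lists held 153 other genes, of which 146 were tested. With ETV1-sh2 against scrambled 14 of them rose (9.59%) and 10 fell (6.85%), where 7.73% of all genes tested rose and 9.00% fell. With ETV1-sh1 none rose and 2 fell (1.37%), where 0.773% of all genes tested rose and 1.51% fell. All 4 differences were above 0 in 39 of the 146 (26.7%), against the 19.7% of all genes given above. The shares past the threshold are near those of all genes. Each gene named in the next 3 paragraphs as having risen or fallen had a limma adjusted p between 0.0111 and 0.0478. Without the filter on low values 0 genes of the table passed in any hairpin comparison in limma (3951 and 2271 did at an unadjusted p under 0.05 with ETV1-sh2 and ETV1-sh1 against scrambled).

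By pathway, 3 of 23 other dynein and dynactin genes rose with ETV1-sh2: the light chain DYNLL2 (log2 change 0.91), the intermediate chain DYNC1I1 (0.82) and the dynactin subunit ACTR1A (0.58). The light chain DYNLT3 (-1.26) and the adaptor BICD1 (-0.79) fell. Of 30 other Mediator genes MED24 (1.25), MED16 (1.14) and the kinase-module cyclin CCNC (0.73) rose and none fell. Of 5 other proprotein convertases PCSK1 (1.25), an enzyme of the regulated secretory pathway, rose with ETV1-sh2, from low levels. It was at 2.21, 1.74 and 0.430 FPKM in Colo800 with ETV1-sh2, ETV1-sh1 and scrambled, and at 2.73, 3.66 and 0.488 in A375.

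None of 27 other sorting nexin and retromer genes rose with ETV1-sh2 and 4 fell, among them SNX25 (-1.49), SNX7 (-1.17) and SNX5 (-1.06), while SNX24 (-1.45) fell with ETV1-sh1. SNX24 was at 44.2, 11.8 and 36.0 FPKM in Colo800 with ETV1-sh2, ETV1-sh1 and scrambled, and at 37.8, 14.7 and 40.0 in A375, so its low level went with ETV1-sh1 in both lines. In the clathrin list of 21 genes the adaptors EPN1 (0.73) and AP2A1 (0.65) rose with ETV1-sh2. AP2B1 (-1.06) and AP2M1 (-0.59), subunits of the same AP2 adaptor as AP2A1, fell with ETV1-sh2. With ETV1-sh1 AP2B1 was above scrambled, 1.67-fold in Colo800 and 1.53-fold in A375, but did not pass (limma adjusted p = 0.108). In the p24 and COPI list of 20 genes the retrieval receptor KDELR3 (1.04) and TMED2 (0.60) rose with ETV1-sh2 and the GTPase ARF1 (-0.59) fell. GRAMD1A (0.76), the nearest relative of GRAMD1B, was the 1 of 4 other GRAM domain genes that rose with ETV1-sh2.

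Of 10 other heme genes UROD (0.91), the enzyme just before CPOX, rose with ETV1-sh2 and ALAS1 (-0.79), which starts the pathway, fell. UROD was at 85.3, 92.7 and 42.3 FPKM in Colo800 with ETV1-sh2, ETV1-sh1 and scrambled and at 102, 91.2 and 57.4 in A375. HMOX1 (-1.32), which degrades heme, fell with ETV1-sh1. With ETV1-sh2 it was higher than with scrambled in both lines but did not pass (log2 change 0.59, limma adjusted p = 0.0784), at 82.0, 24.3 and 53.0 FPKM in Colo800 with ETV1-sh2, ETV1-sh1 and scrambled and at 33.1, 6.96 and 22.3 in A375; between the hairpins its limma adjusted p was 0.00651. Of 6 other complement regulators and secreted chaperones CFI (1.65), a protease that inactivates complement, rose with ETV1-sh2, where it was at 7.94 FPKM in Colo800, against 0.961 with scrambled, and at 43.2 in A375, against 19.6 with scrambled. In each of the 9 lists the gene under study had a larger mean difference than any other gene tested, as a choice by that difference would give.

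**Figure D5:**
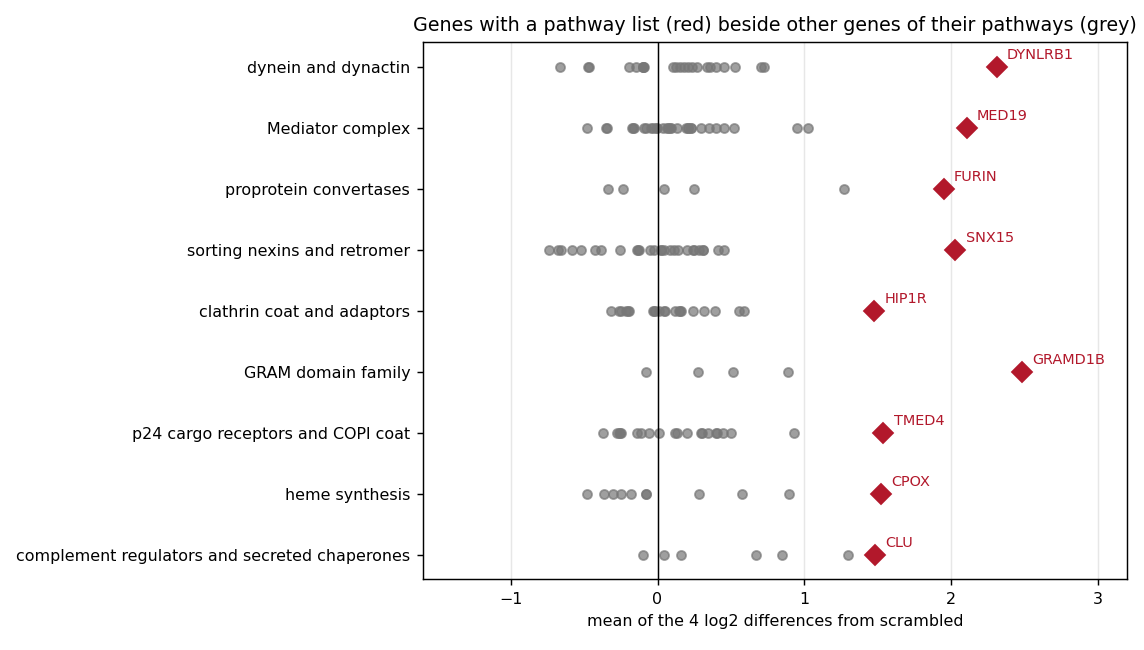
Mean of the 4 log2 differences from scrambled for 9 of the 10 genes (red diamonds; GPR157 has no list) and for the other tested genes of each list (grey points). The grey points lie on both sides of 0 in every list, and all lie below the red diamond of their list.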

How the data were processed

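RNA sequencing values of 6 libraries were used as the deposited FPKM table gives them. The authors made the FPKM values with STAR 2.4, Cufflinks 2.2.1 and Cuffnorm on hg19, per the submitters' processing notes; the sources used here do not give the annotation, scaling, filters or strandedness. FPKM carry no depth, so its precision is unknown. The 10 genes and the pathway lists were chosen with earlier results of these data known. Values were analysed as log2(FPKM + 1), which understates the change of low genes, in the 11129 genes with a mean of at least 1 FPKM. limma 3.58.1 in R 4.3.3 (lmFit, eBayes with a variance trend, Benjamini-Hochberg adjustment over all genes tested, threshold 0.05) was fitted across all genes on hairpin (3 levels) and line, with 2 residual degrees of freedom. A second fit joined both ETV1 hairpins (3 residual degrees of freedom); no gene passed there (smallest adjusted p = 0.135, with 637 genes higher and 567 lower at an unadjusted p under 0.05). The code of the fits was run on data simulated from the same model of line and hairpin with independent normal noise. That run cannot show whether the p-values hold for these unreplicated libraries. Named by rule were the 10 genes, ETV1, cell type markers, the 5 other genes with the largest smallest difference, and in each list at most 3 genes per direction and hairpin past the threshold. DYNLRB2, HIP1, TMED9 and DUSP6 were named outside this rule, HIP1 and TMED9 after their values were seen. Overlapping genes were looked up in GENCODE 29 by Ensembl identifier, and promoters in RefSeq by symbol. Alternatives were another pseudocount, no filter, median centring, no variance trend, each library left out and, between the hairpins, the 4 ETV1 hairpin libraries alone.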

Additional observations from a re-analysis of the deposited data

Results flagged for a closer look

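In 3 of the 10 genes the difference of ETV1-sh2 from ETV1-sh1 had opposite signs in the 2 lines, each sign resting on 1 library against 1, and the difference between the lines was not tested. SNX15 differed by 0.80 on the log2 scale in Colo800 and by -0.05 in A375, a gap of 0.85. TMED4 differed by -0.12 in Colo800 and by 0.44 in A375, a gap of -0.56. FURIN differed by -0.03 in Colo800 and by 0.13 in A375, a gap of -0.16.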

How the results depend on the processing

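With no filter on low values 0 genes passed for ETV1-sh1 or ETV1-sh2 against scrambled and 0 for ETV1-sh2 against ETV1-sh1 in limma (2271, 3951 and 3735 at an unadjusted p under 0.05), and with no variance trend 119 passed for ETV1-sh1, against 254. Leaving out 1 library gave 0 to 834 genes for ETV1-sh1 (0 without either ETV1-sh1 library), 83 (without A375 scrambled) to 1974 for ETV1-sh2, 0 (without either ETV1-sh1 library) to 1739 between the hairpins, 4401 to 5797 between the lines and 0 for both hairpins together; these fits have 1 or 2 residual degrees of freedom, and ETV1-sh2 gave 322 without Colo800 scrambled. Between the hairpins the sign turned for FURIN without A375 ETV1-sh1 (-0.13; range -0.13 to 0.23) or Colo800 ETV1-sh2 (-0.012), SNX15 without Colo800 ETV1-sh1 (-0.026; range -0.026 to 0.78) and TMED4 without A375 ETV1-sh1 (-0.27; range -0.27 to 0.59), and the cause was not tested. With a pseudocount of 0.1 the fitted difference of both hairpins from scrambled was 1.66 for HIP1R, more than the SD of its 4 differences above 1.48. Lost and gained calls of single genes stand in the report. Every fit held the cell line as a block, which pairs the libraries of a line; the labels give no replicate numbers for another pairing.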
